A study of Homarus americanus with 19 samples.

Results

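The expression of 2 genes of the American lobster, Homarus americanus, is described here, of 25667 genes that had transcripts in the count table. They are LOC121872643, annotated as serine/threonine-protein kinase meng-po-like, with 1 RefSeq transcript (XM_042375565.1), and LOC121862377, annotated as inositol-trisphosphate 3-kinase homolog, with 2 transcripts (XM_042360636.1 and XM_042360637.1). Both were chosen by their measured difference between methylnaphthalene and control larvae, in which they were higher with methylnaphthalene, so their values in that comparison are a description and carry no test. The 3 transcripts are among 46006 that Kallisto, which estimates how many reads come from each known transcript, counted in every library.

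The study exposed lobster larvae for 24 h and sequenced the RNA of whole larvae, with 1 larva in each library, so that p-values measure the spread between larvae of a group. Control larvae (n = 6) were kept in seawater filtered at 0.22 µm. Larvae of the positive control group (n = 6), called the methylnaphthalene group here, were exposed to 1-methylnaphthalene, a component of crude oil, at 0.3 mg/L. Larvae of the remaining group (n = 7) received a WAF of crude oil, the water fraction that takes up oil components, at 72%. All 19 larvae carry the label embryonic day 9, and the tissue is given as whole larvae. In whole larvae, fewer cells of a type and less RNA per cell cannot be told apart.

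Inositol trisphosphate is a messenger made at the cell membrane after a receptor is activated, and it opens calcium stores inside the cell. Inositol-trisphosphate 3-kinase adds a phosphate to it, which gives inositol tetrakisphosphate and ends that signal. Meng-po is a serine/threonine kinase of the SBK family. In Drosophila it acts in memory, where protein kinase A phosphorylates it and it keeps the transcription factor CREB stable. Roles in the lobster are not known from these files.

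Total counts ranged from 14295653 to 44466373 per larva, with medians of 25855582 in control, 26276219 in methylnaphthalene and 24839160 in WAF larvae. A single noncoding RNA, LOC121857831, took between 7.44% and 28.0% of the counts of a larva. WAF larvae 6 and 7 stood apart from the other WAF larvae in this share, at 7.47% and 10.4%, while the others lay between 23.2% and 28.0%. Among methylnaphthalene larvae the share was highest in larva 3, at 26.4%. Levels are given as CPM, which are counts scaled by TMM library sizes and do not adjust for gene length, so levels of different genes are not compared with each other.

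The meng-po-like gene had few counts in control larvae and was far higher in methylnaphthalene larvae. Its level in control larvae was lowest at 0.393 CPM, had a median of 0.510 CPM and was highest at 1.39 CPM, from 8 to 25 counts. The methylnaphthalene larvae had 17.0, 33.0, 2.48, 60.8, 58.8 and 24.5 CPM, in the order of their replicate numbers, from 49 to 3065 counts. Every methylnaphthalene larva therefore lay above every control larva, as did those of 5.81% of all tested genes, and larva 3 was far below the other methylnaphthalene larvae. In WAF larvae the lowest level was 0.310 CPM, the median 0.527 CPM and the highest 1.10 CPM, from 6 to 49 counts. The WAF larvae overlapped the control larvae, and none of them reached the lowest methylnaphthalene larva. Such a gap between all methylnaphthalene and all WAF larvae was found for 1.2% of tested genes.

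**Figure D1:**
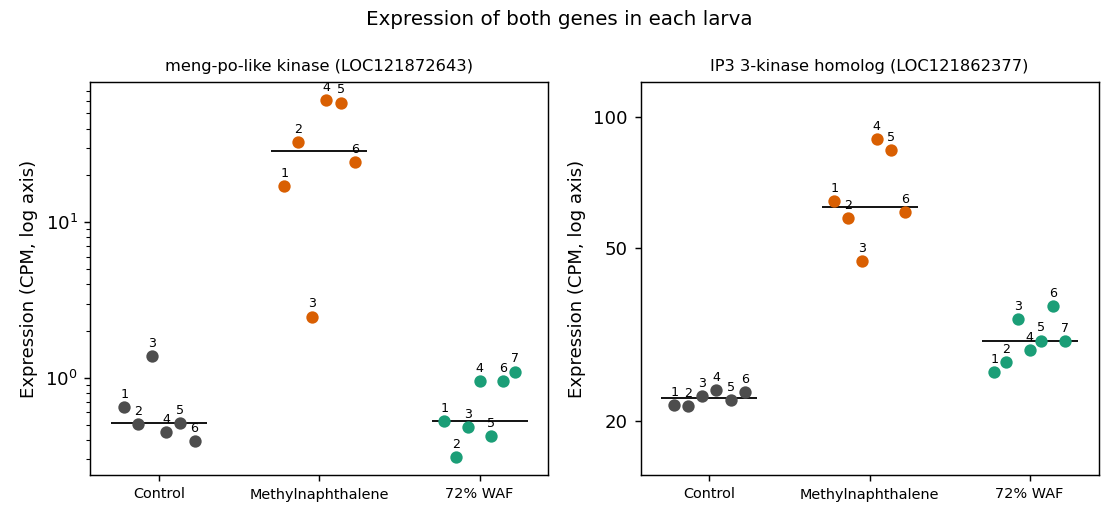
Expression of the meng-po-like gene (left) and the inositol-trisphosphate (IP3) 3-kinase homolog gene (right) in each larva, in CPM on a log axis, by group. Points are larvae with their replicate numbers and lines are group medians. Methylnaphthalene larvae lie above all others for both genes, and WAF larvae overlap control larvae only for the meng-po-like gene.

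Mean expression of the meng-po-like gene was 0.651 ± 0.372 CPM (SD, n = 6) in control, 32.8 ± 23.2 CPM (SD, n = 6) in methylnaphthalene and 0.679 ± 0.314 CPM (SD, n = 7) in WAF larvae. The edgeR fit gave a log2 fold change of 5.69 (SE 0.610) for methylnaphthalene against control, a 51.8-fold difference. Without methylnaphthalene larva 3 it was 5.96, and without control larva 3, the highest control, it was 6.00. Both members are among the 3.67% of 18914 tested genes that were called higher in methylnaphthalene larvae, which the choice of members fixed. A gene was called when its Benjamini-Hochberg adjusted p was below 0.05 and its absolute log2 fold change above 1.5. Against WAF larvae, which share the methylnaphthalene larvae with the contrast behind the choice, the log2 fold change was 5.55 (SE 0.566).

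For the meng-po-like gene no difference between WAF and control larvae was detectable at this depth. The log2 fold change was 0.15 (SE 0.572), with an adjusted p of 0.939 in the edgeR quasi-likelihood test, and the control larvae in it also entered the contrast that chose the gene. The exact permutation test of the CPM gave p = 0.884 (two-sided, 1716 splits of the larvae). The fitted difference changed sign, to -0.20 (SE 0.708), when WAF larvae 6 and 7 were both left out (an alternative added once the data had been seen). The share of all genes called higher in WAF larvae was 0.0106%, and of those called lower 0.106%.

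The gene for inositol-trisphosphate 3-kinase varied little among control larvae and took a separate range in each group. In control larvae its lowest level was 21.6 CPM, its median 22.5 CPM and its highest 23.5 CPM. The methylnaphthalene larvae had 63.8, 58.4, 46.7, 89.0, 83.9 and 60.2 CPM, in the order of their replicate numbers. The same larvae, 4 and 5, were highest for both members, and larva 3 was lowest for both. In WAF larvae 1 to 7 the levels were 25.9, 27.2, 34.3, 29.0, 30.6, 36.6 and 30.5 CPM. All 7 WAF larvae lay above all control larvae and below all methylnaphthalene larvae.

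Mean expression of this gene was 22.5 ± 0.770 CPM (SD, n = 6) in control, 67.0 ± 16.2 CPM (SD, n = 6) in methylnaphthalene and 30.6 ± 3.79 CPM (SD, n = 7) in WAF larvae. The log2 fold change of methylnaphthalene against control was 1.57 (SE 0.131), just above the fold threshold. It was 1.48 without methylnaphthalene larva 4 and 1.499 without larva 5, which placed it just under that threshold. Against WAF larvae the log2 fold change was 1.13 (SE 0.124).

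In WAF larvae the 3-kinase gene was 1.36-fold higher than in control larvae, a log2 fold change of 0.44 (SE 0.125). The edgeR quasi-likelihood test over all genes gave an unadjusted p of 0.00217 and an adjusted p of 0.242, so the gene was not called. The exact permutation test of this gene alone gave p = 0.00117 (two-sided, 1716 splits of the larvae). The narrow control values in both tests also entered the contrast that chose the gene, so neither p is independent of that choice. The share of tested genes in which every WAF larva lay above every control larva was 0.286%, or 54 genes. Without WAF larvae 6 and 7 the log2 fold change was 0.39 (SE 0.134, edgeR adjusted p = 0.116). In a fit of only the control and WAF larvae the edgeR adjusted p was 0.0479, at the same log2 fold change of 0.44, and over all alternatives except those that left out larvae it lay between 0.0479 and 0.769.

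The 2 transcripts of the 3-kinase gene behaved differently among larvae of a group. Of XM_042360636.1, the control larvae held between 4.86 and 13.5 CPM (median 10.4 CPM). In methylnaphthalene larvae 1 to 6 it had 22.2, 21.8, 7.25, 53.5, 60.4 and 34.2 CPM, and in WAF larvae between 4.10 and 26.8 CPM (median 6.33 CPM). Methylnaphthalene larva 3 lay inside the control range, the other methylnaphthalene larvae lay above all control larvae, and WAF larva 6 was the only WAF larva above them.

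XM_042360637.1 had between 9.61 and 18.6 CPM in control larvae (median 11.7 CPM). The methylnaphthalene larvae 1 to 6 had 40.5, 36.6, 39.5, 36.8, 26.3 and 26.6 CPM, and the WAF larvae between 10.2 and 26.7 CPM (median 21.3 CPM). All methylnaphthalene larvae lay above all control larvae, as for 3.08% of tested transcripts, and larva 3, lowest for the gene as a whole, was among the highest for this transcript. In WAF larvae, 5 of 7 lay above all control larvae.

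In the fit over transcripts, the log2 fold change of methylnaphthalene against control was 1.74 (SE 0.499) for XM_042360636.1 and 1.46 (SE 0.210) for XM_042360637.1. For WAF against control, XM_042360636.1 gave 0.01 (SE 0.468). XM_042360637.1 gave 0.72 (SE 0.201), with an unadjusted p of 0.00208 and an adjusted p of 0.479 in edgeR's quasi-likelihood test. The exact permutation test of its CPM gave p = 0.0128 for WAF against control, with control larvae that also entered the choice of the gene. Of all tested transcripts, 0.0029% were called higher in WAF larvae. Neither transcript had a whole estimated count in any larva, so reads were divided between them by estimation.

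**Figure D2:**
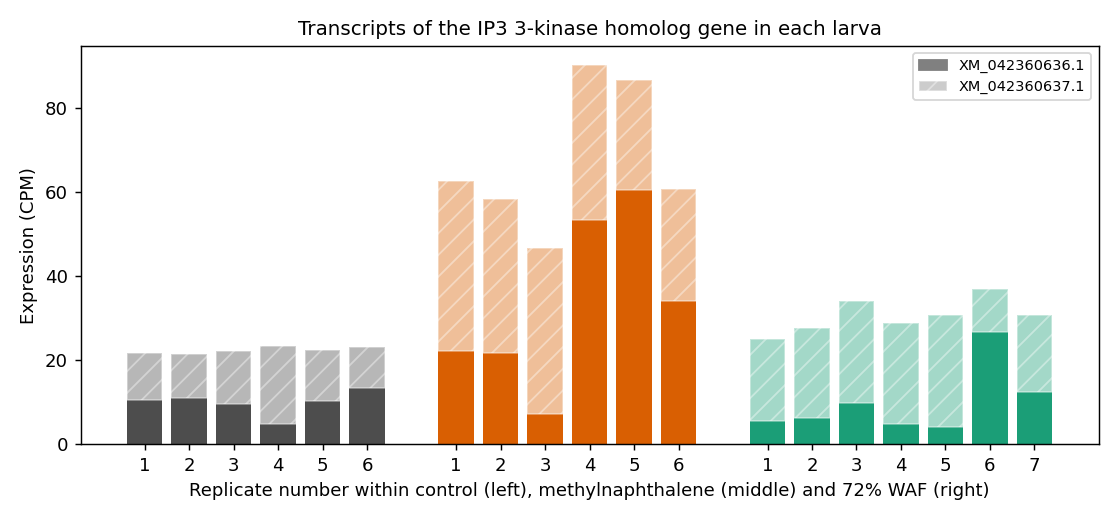
Levels of XM_042360636.1 (solid) and XM_042360637.1 (hatched) stacked for each larva, in CPM from 0. The hatched part is between 26.3 and 40.5 CPM in methylnaphthalene larvae, while the solid part runs from 7.25 to 60.4 CPM.

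The share of the gene's counts in XM_042360636.1 is a measure that the choice of members did not use, although it is not corrected for transcript length. In control larvae it was between 20.7% and 58.4%, with a mean of 44.5% ± 12.8 (SD, n = 6). In methylnaphthalene larvae 1 to 6 it was 35.4%, 37.3%, 15.5%, 59.2%, 69.6% and 56.2%. The WAF larvae 1 to 7 had 21.6%, 22.9%, 29.0%, 16.7%, 13.4%, 72.4% and 40.6%. WAF larvae 6 and 7 were therefore the highest of their group, and methylnaphthalene larva 3 the lowest of its group.

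The mean share in WAF larvae was 30.9% ± 20.3 (SD, n = 7), a difference from control of -13.5 percentage points (exact permutation test, two-sided, p = 0.186). Without WAF larva 6 the difference was -20.4 points (exact permutation p = 0.0195), and without WAF larvae 6 and 7 it was -23.8 points (exact permutation p = 0.0108). These larvae had the highest shares of their group, so leaving them out enlarged the difference, and neither p is independent evidence. Leaving out both was chosen after the data were seen. Leaving out a single larva moved the difference between -20.4 and -10.6 points, with an exact permutation p between 0.0195 and 0.308.

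The transcript share moved with the share of all counts in the noncoding RNA LOC121857831. Within the methylnaphthalene group Pearson's r was -0.970 (exact permutation p = 0.00139, adjusted p = 0.0125) and Spearman's rho was -1.0 (exact permutation p = 0.00278, adjusted p = 0.025, n = 6). Leaving out the 2 larvae farthest from the median left r = -0.945. In WAF larvae r was -0.867 (exact permutation p = 0.0194, adjusted p = 0.0583) and rho was -0.43 (exact permutation p = 0.354, adjusted p = 0.530). That relation rested on the 2 farthest larvae, since r was 0.490 without them. In control larvae r was -0.685 (exact permutation p = 0.117, adjusted p = 0.175) and rho was -0.43 (exact permutation p = 0.419, adjusted p = 0.539), and without the 2 farthest r was 0.932. These are among 9 relations with this RNA that were computed after the data were seen, and its part in the transcript shares was not tested.

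**Figure D3:**
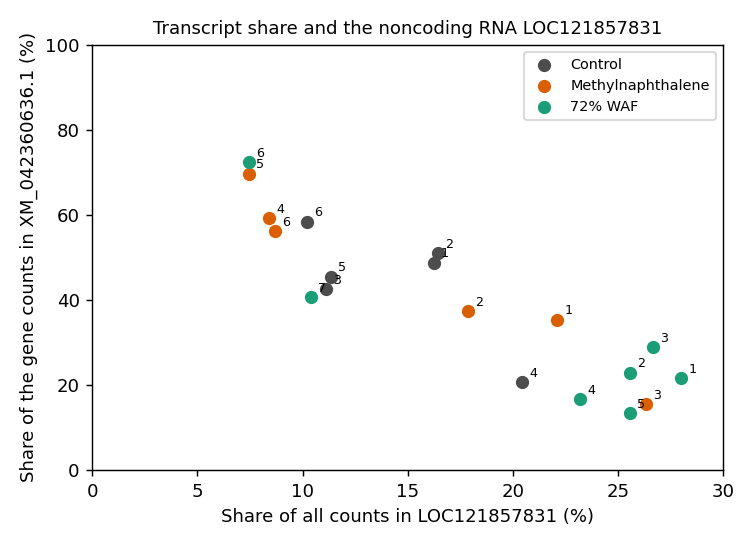
Share of the 3-kinase gene's counts in XM_042360636.1 (y axis, %) against the share of all counts in LOC121857831 (x axis, %), 1 point per larva with its replicate number, coloured by group. WAF larvae 6 and 7 lie at 7.47% and 10.4% on the x axis, and methylnaphthalene larva 3 at 26.4%.

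The levels of the members themselves were also compared with the noncoding share. In methylnaphthalene larvae the meng-po-like gene gave r = -0.840 (exact permutation p = 0.0194, adjusted p = 0.0583) and rho = -0.89 (exact permutation p = 0.0333, adjusted p = 0.15). Without the 2 farthest larvae r was -0.398, so the relation rested on them. The 3-kinase gene gave r = -0.790 (exact permutation p = 0.075, adjusted p = 0.135) and rho = -0.77 (exact permutation p = 0.103, adjusted p = 0.308) in the same larvae, and -0.664 without the 2 farthest. In WAF larvae the meng-po-like gene gave r = -0.751 (exact permutation p = 0.0450, adjusted p = 0.101) and rho = -0.57 (exact permutation p = 0.200, adjusted p = 0.424), with r = -0.503 without the 2 farthest. The 3-kinase gene gave r = -0.581 (exact permutation p = 0.140, adjusted p = 0.180) and rho = -0.54 (exact permutation p = 0.236, adjusted p = 0.424) in WAF larvae, with r = -0.142 without the 2 farthest. In control larvae r was -0.273 (exact permutation p = 0.642, adjusted p = 0.722) for the meng-po-like gene, with rho = -0.09 (exact permutation p = 0.919, adjusted p = 0.919) and r = -0.510 without the 2 farthest. For the 3-kinase gene in control larvae r was -0.040 (exact permutation p = 0.944, adjusted p = 0.944) and rho was -0.14 (exact permutation p = 0.803, adjusted p = 0.903), with r = -0.937 without the 2 farthest. With LOC121857831 removed from the library totals, both members kept their direction in every comparison.

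The relation between the members was examined within each group, since the groups form separate clusters. In methylnaphthalene larvae the log2 CPM of the 2 genes had r = 0.873 (exact permutation p = 0.0153, adjusted p = 0.0458 over 3 groups) and rho = 0.77 (exact permutation p = 0.103, adjusted p = 0.308, n = 6). Without the 2 larvae farthest from the median r was 0.720. In WAF larvae r was 0.372 (exact permutation p = 0.401, adjusted p = 0.601) and rho was 0.11 (exact permutation p = 0.840, adjusted p = 0.840), with r = 0.661 without the 2 farthest. In control larvae r was -0.123 (exact permutation p = 0.871, adjusted p = 0.871) and rho was -0.43 (exact permutation p = 0.419, adjusted p = 0.629), with r = -0.711 without the 2 farthest. Whether the relation differs between groups was not tested.

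In the RefSeq gene order of the assembly GMGI_Hamer_2.0, which the table gives without scaffold names, the meng-po-like gene spans 2051 bases and lies among 3 genes annotated as SBK1-like. SBK1 is a serine/threonine kinase of the same family. LOC121872645 ends 9.499 kb before it, LOC121872642 ends 31.7 kb before it, and the 61.1 kb span of LOC121872644 contains it. The reads of these kinases were counted against separate transcripts. The counts of the meng-po-like transcript were whole in 18 of 19 larvae, and no other transcript had the same counts in every larva.

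LOC121872645 had between 0.639 and 2.06 CPM in control and between 0.468 and 2.96 CPM in WAF larvae. In methylnaphthalene larvae 1 to 6 it had 10.3, 21.7, 2.13, 41.9, 39.0 and 16.0 CPM. Larva 3 was again lowest, only just above the highest control larva, and larvae 4 and 5 were again highest. LOC121872644 had between 5.89 and 12.8 CPM in control and between 3.98 and 8.75 CPM in WAF larvae. Methylnaphthalene larvae 1 to 6 had 33.99, 46.9, 7.59, 92.8, 83.0 and 37.2 CPM, with larva 3 inside the control range. LOC121872642, in contrast, had 10.2 CPM in methylnaphthalene larva 3, inside the range of 7.06 to 16.7 CPM of that group, and between 3.10 and 6.31 CPM in control larvae.

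**Figure D4:**
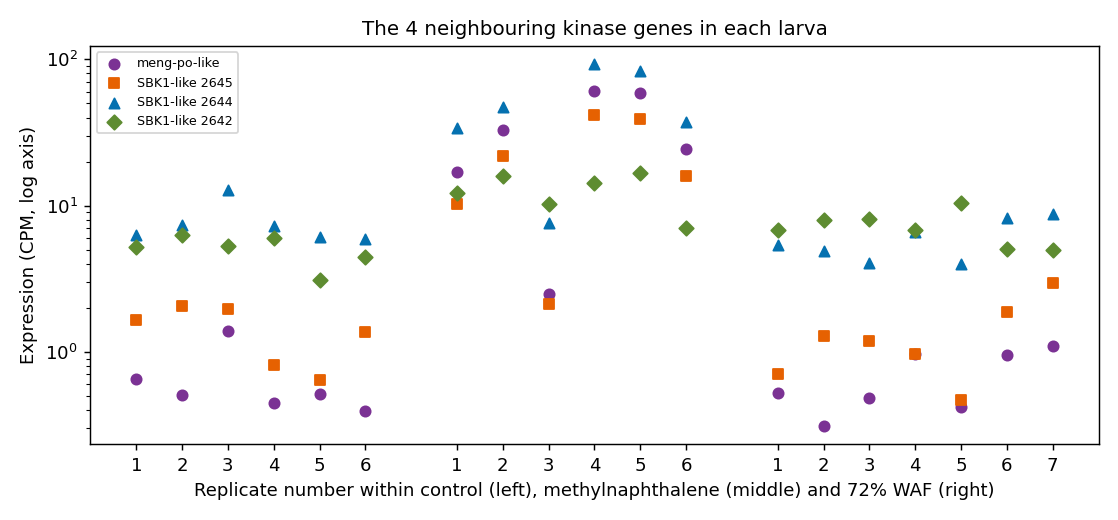
Expression of the meng-po-like gene and of LOC121872645, LOC121872644 and LOC121872642 (last 4 digits in the legend) in each larva, in CPM on a log axis. In methylnaphthalene larva 3 the first 3 genes are at 2.48, 2.13 and 7.59 CPM, the lowest of that group.

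Of these 3 SBK1-like genes, 2 were called higher in methylnaphthalene larvae, none was called lower, and the median log2 fold change was 2.73, beside -0.02 over all tested genes, of which 3.67% were called higher and 0.169% lower. The log2 fold changes were 3.96 (SE 0.583) for LOC121872645, 2.73 (SE 0.420) for LOC121872644 and 1.33 (SE 0.227) for LOC121872642, which missed the fold threshold. None was called by edgeR, limma or DESeq2 in WAF larvae. In edgeR's quasi-likelihood test 1 had an unadjusted p below 0.05, beside 8.5% of all tested genes. In the same order, these genes had log2 fold changes there of -0.02 (SE 0.541), -0.34 (SE 0.388) and 0.50 (SE 0.219), with edgeR adjusted p-values of 0.993, 0.787 and 0.547. Their names came from a list of these larvae's features sorted by significance, so the count is no independent evidence.

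The ratio of counts of LOC121872645 to those of the meng-po-like gene ranged only from 0.604 to 0.857 over the methylnaphthalene larvae, larva 3 included. It ranged from 1.24 to 4.08 in control larvae and from 1.00 to 4.14 in WAF larvae, where counts were low. For LOC121872644 the ratio was 1.41 to 3.06 in methylnaphthalene, 9.18 to 16.2 in control and 6.82 to 15.7 in WAF larvae. Of the 3 transcripts of LOC121872644, XM_042375568.1 held a median of 58.0% of the counts in control, 90.9% in methylnaphthalene and 56.6% in WAF larvae. Its log2 fold change against control was 3.40 (SE 0.563) with methylnaphthalene and -0.48 (SE 0.50, edgeR adjusted p = 0.993) with WAF.

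Further along, LOC121872646, annotated as endoglucanase E-4-like, lies 84.0 kb after the meng-po-like gene. Control larvae had 0 to 4 counts of it, methylnaphthalene larvae 52 to 794 counts, and WAF larvae 2 to 127 counts. It was 6.35 higher on the log2 scale (SE 0.927) in methylnaphthalene larvae, and 3.26 higher (SE 0.909, edgeR adjusted p = 0.229) in WAF larvae. The WAF difference lay mainly in larvae 6 and 7, with 127 and 30 counts, where the other WAF larvae had 2 to 5 counts. Only 3 of 7 WAF larvae lay above all control larvae in CPM. LOC121872787 had log2 fold changes of -0.57 (SE 0.568) with methylnaphthalene and -0.14 (SE 0.549) with WAF, and LOC121872786 had 0 counts in every larva. In all, 3 of the 5 tested neighbours of the meng-po-like gene, 2 of them the SBK1-like genes counted above, were called higher in methylnaphthalene larvae, beside 3.67% of all tested genes. With WAF the quasi-likelihood test called none of them, with 2 at an unadjusted p below 0.05, beside 8.5% of all tested genes. Limma called none, while DESeq2 and edgeR's likelihood ratio test each called 1, LOC121872646. The quasi-likelihood test called 0.0106% of all genes higher, and the shares of the other tests are not given here.

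The 3-kinase gene spans 77.5 kb, and 5 of the 6 genes nearest to it were tested. The only one called higher in methylnaphthalene larvae was LOC121862514, annotated as SCAN domain-containing protein 3-like, at 3.56 on the log2 scale (SE 1.08). It had at most 3.23 estimated counts in any control larva. LOC121862376 and LOC121862379 had log2 fold changes of 0.04 and 0.09 with methylnaphthalene, and LOC121862515 and LOC121862516 had 0.61 and 0.40, neither of them called.

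**Figure D5:**
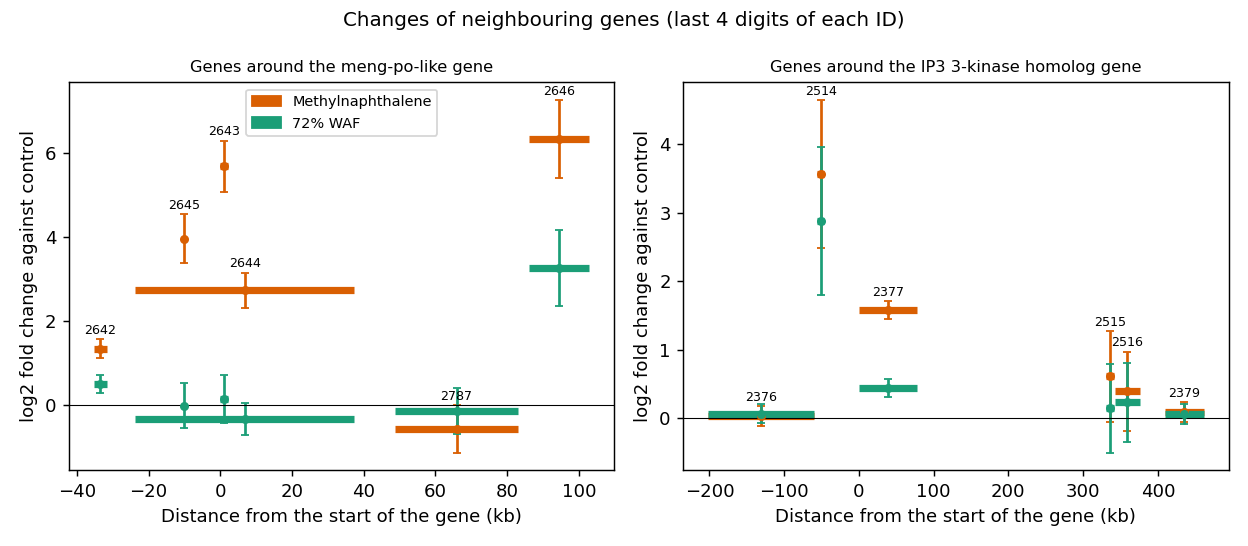
Log2 fold changes against control (y axis) of the tested genes around each member, by distance from the start of the member in kb. Horizontal bars are gene spans, dots are their centres and vertical bars are ± 1 SE, with methylnaphthalene and WAF in separate colours. With methylnaphthalene the meng-po-like gene is at 5.69 and its tested neighbours run from -0.57 (LOC121872787) to 6.35 (LOC121872646), while the 3-kinase gene is at 1.57 and its tested neighbours run from 0.04 (LOC121862376) to 3.56 (LOC121862514).

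Another gene of the inositol phosphate kinase family, LOC121860990, is annotated as inositol-trisphosphate 3-kinase B-like. It had between 31.8 and 36.8 CPM in control, between 47.8 and 97.1 CPM in methylnaphthalene and between 36.8 and 49.9 CPM in WAF larvae. All methylnaphthalene larvae lay above all control larvae, as for 5.81% of all tested genes, and so did 6 of 7 WAF larvae. This gene too was named from the list sorted by significance. Its log2 fold change was 1.07 (SE 0.141) with methylnaphthalene, under the fold threshold, and 0.33 (SE 0.135, edgeR adjusted p = 0.512) with WAF.

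Of 4 further genes of inositol phosphate and calcium signalling, 3 were called higher in methylnaphthalene larvae, beside 3.67% of all tested genes, with none called lower. In WAF larvae edgeR, limma and DESeq2 called none. Beside 8.5% of all tested genes in edgeR's quasi-likelihood test, 0 of these 4 had an unadjusted p below 0.05. Their median log2 fold change was 1.97 with methylnaphthalene and 0.51 with WAF, beside -0.02 and 0.01 over all tested genes. LOC121854779, annotated as calmodulin-like after the calcium sensor calmodulin, rose by 2.11 on the log2 scale (SE 0.334). LOC121866952, a proton myo-inositol cotransporter-like gene for the uptake of inositol, rose by 1.82 (SE 0.287). LOC121875719, annotated as inositol oxygenase-like, the enzyme that breaks inositol down, rose by 3.13 (SE 0.682). LOC121855797, annotated as multiple inositol polyphosphate phosphatase 1-like, had 1.27 (SE 0.419) and was not called. These genes too were named from the significance-sorted list, which favours genes that were called, so the count and the median are descriptions of this list only.

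Methylnaphthalene larva 3, lowest for both members, was highest of its group for the calmodulin-like gene, at 31.1 CPM, and for the inositol oxygenase-like gene, at 32.5 CPM. WAF larva 6, highest of its group for the 3-kinase gene, was also highest for all 4 of these genes. Its inositol oxygenase-like level was 23.7 CPM, where the WAF median was 2.11 CPM.

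In the Seq2Fun table, where the reads of the same larvae were translated and counted by ortholog group, each member had a group of its name. The meng-po group (s2f_0002182005) had between 15.1 and 28.8 CPM in control, between 22.05 and 210 CPM in methylnaphthalene and between 14.7 and 26.5 CPM in WAF larvae. Methylnaphthalene larva 3 was the lowest of its group, at 22.05 CPM, and lay inside the control range. The log2 fold change was 2.58 (SE 0.364) with methylnaphthalene, where the Kallisto gene had 5.69, and -0.18 (SE 0.337, edgeR adjusted p = 0.866) with WAF. The group had a mean of 20.5 CPM in control larvae, where the Kallisto gene had 0.651 CPM. An ortholog group can count reads of several genes, so the values of group and gene are not of the same unit. Which lobster genes this group counted was not tested.

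The 3-kinase homolog group (s2f_0002239004) had between 7.35 and 9.04 CPM in control, between 13.8 and 38.4 CPM in methylnaphthalene and between 8.05 and 16.9 CPM in WAF larvae. All methylnaphthalene larvae lay above all control larvae, as in 4.47% of ortholog groups, while WAF larvae overlapped them. Its log2 fold change was 1.66 (SE 0.232) with methylnaphthalene and 0.45 (SE 0.224, edgeR adjusted p = 0.649) with WAF. A second group, annotated as inositol-trisphosphate 3-kinase A-like (s2f_0002239005), had 1.13 (SE 0.170) and 0.44 (SE 0.163, edgeR adjusted p = 0.549). Of all ortholog groups, 2.76% were called higher with methylnaphthalene and 0.0% with WAF by edgeR, where 844 groups had an unadjusted p below 0.05 in either direction.

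Genes with a pattern like that of each member were ranked by Pearson's r of log2 CPM over all 19 larvae, which includes the differences between groups. The 5 genes nearest to the meng-po-like gene were LOC121872644 (r = 0.975), LOC121857049 (r = 0.960), LOC121872645 (r = 0.959), LOC121854255 (r = 0.958) and LOC121869762 (r = 0.954). LOC121857049 is annotated as cyclic AMP-responsive element-binding protein 1-like, LOC121854255 as prostaglandin G/H synthase 2-like and LOC121869762 as serine/threonine-protein kinase pim-3-like. After the mean of each group was subtracted, LOC121872644 still had r = 0.965, rank 1, LOC121872645 had 0.852, rank 9, LOC121854255 had 0.850, rank 11, LOC121857049 had 0.754, rank 187, and LOC121869762 had 0.677, rank 639. Methylnaphthalene larva 3 was the lowest of its group for the meng-po-like gene and for all 5 of these genes. These r were not computed without that larva.

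For the 3-kinase gene the nearest were LOC121863066 (r = 0.948), annotated as tyrosine-protein phosphatase non-receptor type 4-like, LOC121857812 (r = 0.943), V-type proton ATPase subunit B, LOC121878507 (r = 0.940), SIN3-HDAC complex-associated factor-like, LOC121857049 (r = 0.938) and LOC121874996 (r = 0.938). With the group means subtracted these fell to 0.838, 0.534, 0.478, 0.697 and 0.300, at ranks 16, 3256, 4168, 660 and 6739. LOC121857049 was the gene among the first 5 of both members, and its log2 fold change was 1.00 (SE 0.119) with methylnaphthalene and 0.09 (SE 0.114) with WAF. The members themselves had r = 0.930 with each other, rank 12 from the meng-po-like side and rank 9 from the other. Subtracting the group means lowered this r to 0.720, rank 344 and rank 436 in the same order.

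Markers of tissues that whole larvae hold also moved with the groups. Of 15 haemocyanin genes, which encode the oxygen carrier of the haemolymph, 12 were called higher in methylnaphthalene larvae, where 3.67% of all tested genes were, and 3 were above 1 CPM in every larva. Their summed level ranged from 186 to 1059 CPM (median 380 CPM) in control and from 3095 to 16039 CPM (median 9034 CPM) in methylnaphthalene larvae. In WAF larvae it ranged from 68.4 to 12105 CPM, with a median of 143 CPM, below that of control. Of 11 tested trypsin genes, digestive enzymes of the hepatopancreas, 8 were called higher with methylnaphthalene, beside the same 3.67%. The summed level of the listed trypsin genes ranged from 72.8 to 147 CPM (median 91.8 CPM) in control larvae. It ranged from 240 to 327 CPM (median 289 CPM) in methylnaphthalene and from 66.6 to 236 CPM (median 95.8 CPM) in WAF larvae. The summed level of haemocyanin genes in methylnaphthalene larva 3, 6271 CPM, was inside the range of its group although both members were lowest there. The single muscle gene, a troponin I gene, ranged from 4086 to 5708 CPM in control, from 2541 to 4161 CPM in methylnaphthalene and from 2552 to 4223 CPM in WAF larvae. A nervous system list was picked by the names synaptotagmin and syntaxin alone, and whether its genes mark nerve cells was not tested. The summed level of its 2 genes, annotated as extended synaptotagmin-3-like and syntaxin-1A-like, ranged from 0.379 to 3.09 CPM, from 6.21 to 12.0 CPM and from 0.527 to 9.56 CPM in the same order. The medians were 0.960, 8.45 and 1.06 CPM. Every methylnaphthalene larva lay above every control larva in this sum, as for 5.81% of all tested genes taken singly. Neither of these genes was above 1 CPM in every larva. Of 31 tested cuticle genes, 10 were called higher with methylnaphthalene, beside the same 3.67%, and 0 lower. Their median log2 fold change was nevertheless -0.69, beside -0.02 over all tested genes. They summed to between 1166 and 3547 CPM (median 3124 CPM) in control and between 2049 and 3144 CPM (median 2524 CPM) in methylnaphthalene larvae. In WAF larvae the sum was between 1225 and 2977 CPM (median 1527 CPM). All of these lists were named from the significance-sorted list, and the part of tissue makeup in the levels of both members was not tested.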

How the data were processed

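Counts were analysed for 19 libraries, each from 1 whole larva, grouped by the sample titles. The authors deposited estimated counts (expected counts) per RefSeq transcript, made with Kallisto, and raw counts per ortholog group, made with Seq2Fun, both without normalization. Of the estimated counts, 55.2% were not whole. They were summed per gene through the RefSeq table of GMGI_Hamer_2.0, which matched all 46006 transcripts, and rounded. The members and all lists were chosen with earlier results of these data known.

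Features with a total of at least 4 counts, outside the 15% with the smallest interquartile range, were kept (18914 genes, 34454 transcripts and 10974 ortholog groups). TMM library sizes and the quasi-likelihood test of edgeR 4.0.16 (R 4.3.3) were used in a joint fit of all 19 larvae with no covariate. Correlations used log2 CPM with a prior count of 0.5, and single values were tested by exact permutation with scipy 1.17.1. In counts simulated for the genes, 180 of 200 changed genes were recovered with methylnaphthalene and 185 of 200 with WAF, with 4 false calls each.

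Alternatives were DESeq2 1.42.0 and its size factors, the likelihood ratio test, limma 3.58.1, no TMM, library totals without LOC121857831, no filter, filterByExpr, no fold threshold, fits of only the groups compared, replicate numbers as a block, and each larva left out. Leaving out WAF larvae 6 and 7 together, relations with LOC121857831 and correlations without group means were chosen after the data were seen. Named genes were the members, their transcripts, their families, signalling genes that were called, 3 neighbours on each side and the 5 genes nearest in pattern. The signalling list held every gene of its kind found by name in a supplementary table, 4 in all, whether called or not. Families were to be found by protein sequence, but descriptions from a supplementary table were used instead because no protein table was at hand, so the families may be incomplete. Total counts set the counting error of each value, and the reads carry no molecular identifiers.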

Additional observations from a re-analysis of the deposited data

Results flagged for a closer look

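In 39 sets of larvae, each the values of 1 feature in 1 group, the highest or lowest larva was compared with its nearest neighbour by Dixon's ratio, and 5 sets held a larva far from the others. Chance gives such a larva in about 1 in 20 sets, which share larvae and genes here. Control larva 3 had 1.39 CPM of the meng-po-like gene, where the next control larva had 0.653 CPM. The same larva had 12.8 CPM of the neighbouring LOC121872644, where the next had 7.31 CPM. WAF larva 6 had 26.8 CPM of XM_042360636.1, the first transcript of the 3-kinase gene, where the next WAF larva had 12.5 CPM. WAF larva 6 also had 16.9 CPM of the 3-kinase ortholog group s2f_0002239004, where the next had 11.4 CPM. Control larva 4 had 18.6 CPM of XM_042360637.1, the second transcript, where the next control larva had 12.8 CPM.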

How the results depend on the processing

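Across the settings of the fit, methylnaphthalene against control gave log2 fold changes of 5.20 to 5.77 for the meng-po-like gene and 1.54 to 1.59 for the 3-kinase gene, and leaving out each larva gave 5.42 to 6.00 and 1.48 to 1.67. For WAF against control, leaving out each larva gave 0.00 to 0.45 and 0.39 to 0.49. No setting called either gene there. The WAF difference of the meng-po-like gene turned to -0.0904 with replicate number as a block (edgeR adjusted p = 0.961) and to -0.20 without WAF larvae 6 and 7, where the share of XM_042360636.1 differed by -23.8 points. Leaving out single larvae moved that share difference from -20.4 to -10.6 points. With no fold threshold, 1 inositol phosphate kinase gene other than the member passed with methylnaphthalene, against 0 with it. The labels do not say whether equal replicate numbers mark paired larvae. Same-number larvae had median correlations of 0.156 (control with methylnaphthalene), 0.107 (control with WAF) and 0.218 (methylnaphthalene with WAF). For other numbers the medians were -0.054, 0.004 and -0.144. Of 6 same-number pairs, 3 or 4 correlated above 0.1, and 2 correlated best with their own number. Pairing by number was therefore not settled. The block moved the genes called from 726 to 794 with methylnaphthalene, from 22 to 21 with WAF, and from 205 to 600 between both exposures. Shares could not be varied for the meng-po-like gene, which has 1 transcript. Counts of 6 to 49 limit its level in control and WAF larvae.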
